A study of Mus musculus with 6 samples.

Results

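The genes described here encode the machinery that brings proteins into mitochondria and shapes the mitochondrial membranes. They were chosen by name from a table of 25572 genes: every row whose symbol starts with Timm, Tomm, Micos or Chchd followed by a digit, together with Samm50, Immt, Opa1, Mfn1, Mfn2, Dnm1l and Fis1, and without pseudogenes. The rule gave 42 genes, of which 41 are protein coding and 1, Tomm6os, is a non-coding transcript from the strand opposite Tomm6. Of the 42, 40 had a mean of at least 0.5 FPKM (fragments scaled by gene length and by the mapped fragments of the library) over the libraries and were tested. The other two were near 0 in every library: Timm8a2 had at most 0.0332 FPKM and Tomm6os at most 0.191 FPKM.

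RNA sequencing measured these genes in muscle of the hind limb, taken 3 days after ischaemia was induced there by surgery, in a study of histamine, macrophages and vessel growth. The knockout group (HDCKO) held 3 Hdc-/- mice, with a knockout of the histidine decarboxylase gene, and the control group (WT) held 3 wild-type mice, with 1 library per mouse. All 6 mice had the surgery, so each level is set against injured WT muscle and not against unoperated muscle. The sources used here name no strain, age or sex, nor the muscle taken or the deleted exons. Wherever 3 values are given for a group, they are those of replicates 1, 2 and 3 in that order.

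Nearly all mitochondrial proteins are made in the cytosol and imported. The TOM complex of the outer membrane receives precursors, and TIM23 passes those with a presequence through the inner membrane, where an ATP-driven motor pulls them into the matrix. TIM22, supplied by small chaperones of the space between the membranes, inserts carrier proteins, and SAM folds barrel proteins into the outer membrane. MICOS holds the cristae junctions, and mitofusins, OPA1 and DRP1 fuse and divide the organelle. Skeletal muscle fibres are rich in mitochondria and depend on all of these steps.

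The libraries held an estimated 29300000 to 37800000 fragments each, judged from the step between low FPKM values. Hdc had 1.22, 2.46 and 2.52 FPKM in HDCKO and 7.49, 7.72 and 8.17 in WT (log2 change -1.74, adjusted p = 0.00334). Some Hdc transcript was thus still counted in every HDCKO library, and its source was not tested. The 12 markers of mature muscle fibres, which define the labelled tissue, all rose in HDCKO (median log2 change 6.70). They made up 17.2%, 15.1% and 10.4% of all FPKM in HDCKO, but only 0.364%, 0.108% and 0.0956% in WT, so WT muscle held little fibre transcript. All 9 neutrophil markers fell (median -5.56), with summed FPKM of 32.7 to 74.9 in HDCKO and 2460 to 14236 in WT. Of 8 macrophage markers 4 fell and none rose, with sums of 243 to 1901 in HDCKO and 2110 to 2463 in WT. Most of these sums was Lyz2 (174, 494 and 1457 FPKM against 1436, 1425 and 1635), which did not pass (adjusted p = 0.104). Adgre1, Csf1r and C1qa did not pass either. Of 7 endothelial markers 4 fell, and of 7 fibroblast markers 2 fell. Over all genes tested 42.6% were called lower, so the macrophage, endothelial and fibroblast counts are not far from that share. No marker of these 5 lists was at 0 in any library. Of 7 markers of regenerating muscle 2 rose and none fell, and 2 were at 0 in a library. Their summed FPKM was 33.3, 37.7 and 160 in HDCKO and 29.0, 6.52 and 23.8 in WT, highest in HDCKO replicate 3. In whole tissue, fewer cells of a type and less RNA per cell cannot be told apart, and the part of these shifts in the results below was not tested.

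Import and membrane genes did not move as a block. Of the 40 tested, 18 rose in HDCKO, 5 fell and 17 did not pass (limma, adjusted p under 0.05; log2 changes are of FPKM + 0.5, HDCKO minus WT). Over all 13288 genes tested, 17.8% were called higher and 42.6% lower, against 45.0% and 12.5% of the members. Members had a median log2 change of 0.22, against -0.50 for all genes tested. By role, the 18 that rose were 1 TOM, 4 TIM23, 2 TIM22 or small TIM, 3 MICOS or SAM, 5 other CHCHD and 3 fusion genes, and the 5 that fell were 3 TOM and 2 small TIM genes. The groups did not overlap for 20 members with higher HDCKO values and for 10 with lower ones, where the share of all genes was 21.2% and 51.4%. The count of members that fell was 2 when HDCKO replicate 2 was left out and 9 when HDCKO replicate 3 was; leaving out WT replicate 1 or WT replicate 3 gave 3. The count that rose ran from 12 to 19 when each library was left out in turn.

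**Figure D1:**
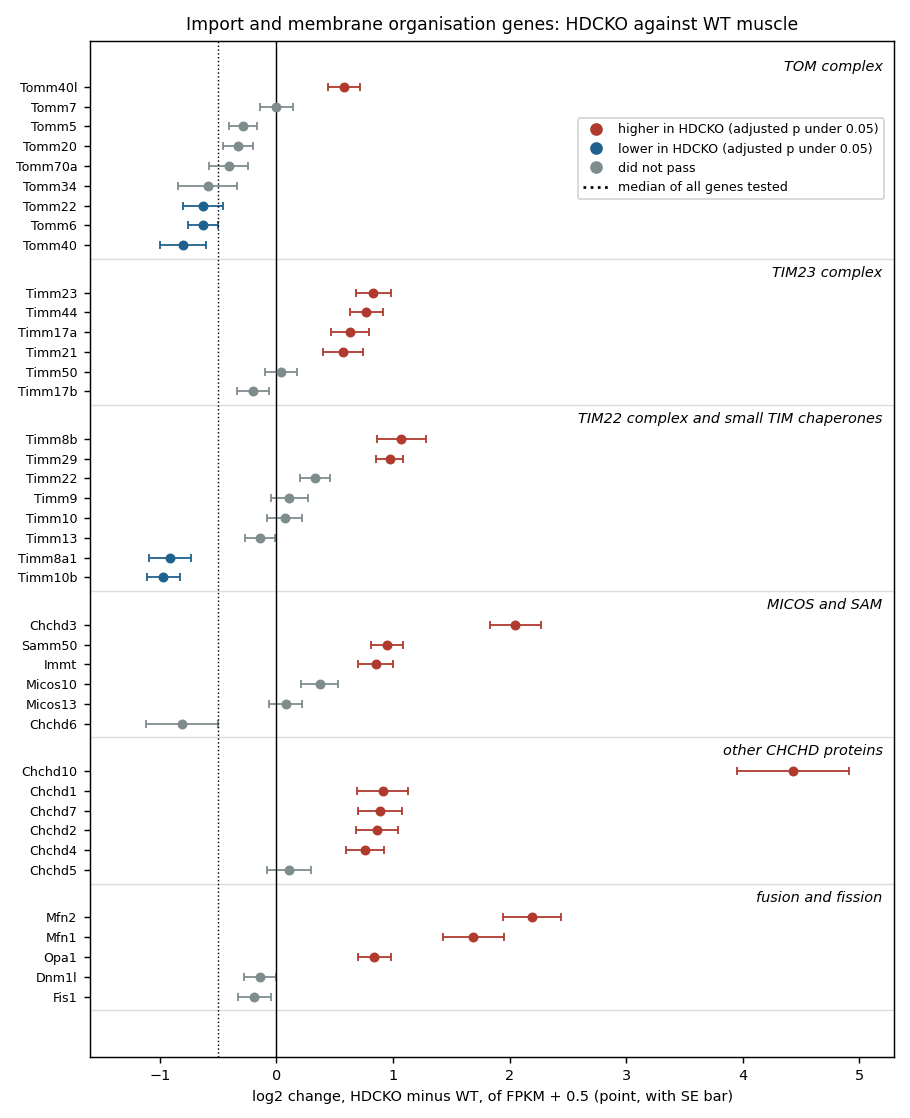
Log2 change (HDCKO minus WT, of FPKM + 0.5) with its standard error for the 40 members tested, 1 row per gene, grouped by role; the solid line is 0 and the dotted line the median of all genes tested, -0.50. Red points passed as higher, blue points as lower, and grey points did not pass; Chchd10 lies farthest to the right at 4.43, and as deposited, TOM genes other than Tomm40l lie at or left of 0.

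Levels differed widely between members in both groups. FPKM is scaled by gene length, so levels of different genes can be set side by side. In WT muscle the highest mean was that of Chchd2, at 145 ± 8.28 FPKM (± is the SD over 3 mice here and below), and the lowest of the tested members was that of Timm21, at 4.71 ± 0.0713. In HDCKO muscle Chchd2 was again highest, at 264 ± 38.9 FPKM, and Chchd6 lowest, at 5.35 ± 2.16. Chchd10, with 183 ± 67.1 FPKM in HDCKO and 8.35 ± 4.30 in WT, moved from among the lower levels to just below Chchd2. HDCKO mice also varied more: the SD of the log2 level was larger in HDCKO than in WT for 34 of 40 members, with a median of 0.193 against 0.0750. For all 18 members that rose and all 5 that fell, HDCKO replicate 3 was the HDCKO library nearest to the WT mean. The share over all genes was not computed for these counts, so they are not shown to be particular to the members. HDCKO replicate 3 was also the HDCKO library with the lowest share of fibre markers, and a link was not tested.

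**Figure D2:**
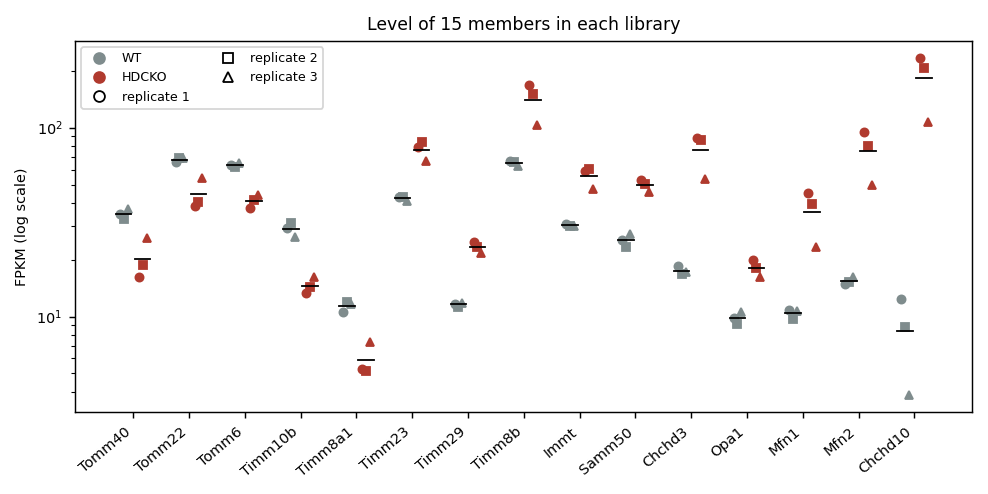
FPKM on a log axis for 15 members in each of the 3 WT (grey) and 3 HDCKO (red) libraries; shapes mark the replicate and short black lines the group mean. In each of the 15 genes, all of them called higher or lower, the groups do not overlap, and the red triangle, HDCKO replicate 3, lies nearest to the WT points.

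Promoter sequences are shown because members of different complexes moved in different directions. Promoter windows from RefSeq (GRCm38.p6, 250 bases before to 50 bases after the start site) were found for 37 of the 42 members, 35 of them among the 40 tested. The ETS site CCGGAAG, the type bound by GABP, a known activator of nuclear genes for mitochondria, was searched on both strands. It stood in 15 of the 35 tested members with a window (42.9%) and in 19.2% of all tested genes with a window. By direction, 6 of 14 members that rose held it, 2 of 5 that fell and 7 of 16 that did not pass. Genes of both directions held it. The site of the oestrogen-related receptors (ERR), AAGGTCA, stood in 5 of 35 members (14.3%) and 3.86% of tested genes, in 3 of 14 that rose, 0 of 5 that fell and 2 of 16 that did not pass. The NRF1 palindrome, whose letters are the capitals in the Opa1 line below, stood in 1 member, Opa1, and in 2.19% of tested genes. Its loose form, with any base at the 2 middle positions, includes it and stood in 6 of 35 (17.1%) and 14.3%. The E-box CAGCTG of myogenic factors was found in 5 of 35 (14.3%) and 18.1%, the YY1 site AAGATGGCG in 1 of 35 (2.86%) and 3.39%, and the MEF2 site in 0 of 35 and 0.246%.

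Below are stretches from 4 of these windows, 120 bases for Timm8b and 80 for the others, each ending at the last base before the start site and chosen to show a matched site in genes that rose (Opa1, Mfn1, Timm8b) and in a gene that fell (Tomm22); capitals mark the matched sites. The Opa1 stretch is chr16:29579254-29579333 and holds the NRF1 palindrome. The Mfn1 stretch, chr3:32529402-32529481, holds 1 ETS site. In the Timm8b stretch, chr9:50603781-50603900, the capitals are an ERR site and then an ETS site. The Tomm22 stretch, chr15:79670788-79670867, has 2 ETS sites on opposite strands that overlap, and the third of its window lies after the start site. All 4 lie on the plus strand of GRCm38.p6.
Opa1: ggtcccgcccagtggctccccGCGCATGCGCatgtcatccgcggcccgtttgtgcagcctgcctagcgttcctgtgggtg
Mfn1: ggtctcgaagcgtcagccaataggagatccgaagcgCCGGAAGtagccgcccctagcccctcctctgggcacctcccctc
Timm8b: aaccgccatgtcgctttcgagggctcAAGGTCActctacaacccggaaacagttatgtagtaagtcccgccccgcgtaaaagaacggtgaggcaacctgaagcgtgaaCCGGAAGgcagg
Tomm22: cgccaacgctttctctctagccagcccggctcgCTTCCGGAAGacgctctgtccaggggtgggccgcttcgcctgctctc
A match is a description of the letters and was not tested as a binding site in these data.

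The TOM complex, the entry gate of the outer membrane, was the one role group with a negative median log2 change as deposited (-0.41; 0.11 with median-of-ratios scaling): of 9 genes 3 fell, 1 rose and 5 did not pass. Tomm40 forms the channel itself. It had 16.2, 18.7 and 25.9 FPKM in HDCKO and 34.8, 32.9 and 37.0 in WT, a log2 change of -0.80 (SE 0.20, adjusted p = 0.0170). Every HDCKO value lay below every WT value, and replicate 3 came closest. The gene lies on chromosome 7, 19435238 to 19449593, minus strand (GRCm39, GENCODE). Its paralogue Tomm40l, which encodes a second form of the channel, went the other way. Tomm40l had 10.5, 9.30 and 8.49 FPKM in HDCKO and 5.76, 6.41 and 6.17 in WT (0.58, SE 0.14, adjusted p = 0.0155), and the groups did not overlap.

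Tomm22 encodes the central receptor that also holds the complex together. Its FPKM was 38.5, 40.2 and 54.2 in HDCKO and 66.1, 68.7 and 68.7 in WT (-0.63, SE 0.17, adjusted p = 0.0231). The small subunit gene Tomm6, which steadies the complex, had 37.7, 41.4 and 44.2 FPKM in HDCKO and 63.2, 62.3 and 65.1 in WT (-0.63, SE 0.13, adjusted p = 0.0106). In both genes the 3 WT mice were tightly grouped and all HDCKO mice lay below them. The presequence receptor gene Tomm20 had log2 change -0.33 (adjusted p = 0.0692), and Tomm70a, the receptor for carrier precursors, had -0.41 (0.0732). For the other small subunits the values were -0.29 for Tomm5 (0.0792) and 0.00 for Tomm7 (0.990). Tomm34, which encodes a cytosolic co-chaperone of import, had -0.59 (0.0784). These 5 did not pass, though Tomm20, Tomm5 and Tomm70a had no HDCKO value inside the WT range.

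The fall of the TOM genes was close to that of a typical gene in this comparison. Relative to the median of all genes, the change was -0.30 for Tomm40, -0.13 for Tomm22 and -0.13 for Tomm6. With median-of-ratios scaling their log2 changes were -0.28, -0.10 and -0.10 and none passed, and after quantile normalization Tomm40 alone passed (-0.39, adjusted p = 0.0405). The number of TOM genes that fell was 0 when HDCKO replicate 2 was left out, 6 for HDCKO replicate 3, and 1 for WT replicate 1 or WT replicate 3. Tomm22 passed only in the leave-out without HDCKO replicate 3. Tomm40 and Tomm40l missed the threshold without HDCKO replicate 2, WT replicate 1 or WT replicate 3 (adjusted p from 0.0562 to 0.0671), and Tomm6 without HDCKO replicate 2 (0.0508).

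TIM23 is the inner membrane gate for matrix proteins: of its 6 genes, 4 rose in HDCKO, none fell and 2 did not pass, with a median log2 change of 0.60. Timm23, the channel-forming core, had 78.6, 83.7 and 66.3 FPKM in HDCKO and 43.0, 43.0 and 41.0 in WT (0.83, SE 0.15, adjusted p = 0.00615). Timm44, which tethers the import motor to the channel, had 34.6, 35.3 and 30.6 FPKM in HDCKO and 19.9, 17.3 and 21.2 in WT (0.77, SE 0.14, adjusted p = 0.00729). All 3 HDCKO mice stood above all WT mice in both. The channel partner gene Timm17a had 93.6, 82.7 and 71.1 FPKM in HDCKO and 53.5, 55.0 and 50.0 in WT (0.63, SE 0.16, adjusted p = 0.0168). Its X-linked paralogue Timm17b had 10.9, 13.7 and 12.7 FPKM in HDCKO and 13.7, 14.8 and 14.4 in WT, with overlapping groups (-0.20, adjusted p = 0.254). Timm21, which links the complex to TOM and to the respiratory chain, rose by 0.57 (adjusted p = 0.0313). The receptor subunit Timm50 had 23.2, 25.0 and 27.2 FPKM in HDCKO and 22.3, 24.2 and 26.6 in WT (0.04, adjusted p = 0.796), so the 6 mice were mixed in order as deposited. It passed as higher under all 3 other scalings (0.56, adjusted p = 0.0248 with median-of-ratios scaling). The TIM23 count was 2 without HDCKO replicate 2, WT replicate 1 or WT replicate 3. Timm17a was lost in those 3 cases, and Timm21 passed only when HDCKO replicate 3 was left out.

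The TIM22 complex and the small TIM chaperones split: 2 of 8 tested genes rose and 2 fell, with a median log2 change of 0.09, and each leave-out gave the same counts. Timm29, a subunit of the TIM22 insertase, had 24.8, 23.4 and 21.6 FPKM in HDCKO and 11.7, 11.3 and 11.8 in WT (0.97, SE 0.12, adjusted p = 0.00238). Timm8b encodes a small chaperone, and its FPKM was 168, 150 and 103 in HDCKO and 66.8, 66.2 and 63.0 in WT (1.07, SE 0.21, adjusted p = 0.00890). Both stood above WT in every HDCKO mouse. In contrast Timm8a1, the X-linked paralogue of Timm8b, had 5.26, 5.12 and 7.35 FPKM in HDCKO and 10.6, 11.9 and 11.7 in WT (-0.91, SE 0.18, adjusted p = 0.00825). Timm10b, a small TIM bound to the TIM22 complex, had 13.3, 14.3 and 16.1 FPKM in HDCKO and 29.6, 31.2 and 26.5 in WT (-0.97, SE 0.14, adjusted p = 0.00355). Timm10b lies on chromosome 7, 105289263 to 105292847, plus strand (GRCm39). Unlike the TOM genes, these 2 fell under every scaling tried: the log2 changes were -0.41 and -0.46 with median-of-ratios scaling (adjusted p = 0.0390 and 0.0409). The insertase channel gene Timm22 had log2 change 0.33 (adjusted p = 0.0737), and it passed as higher under all 3 other scalings (0.83, adjusted p = 0.0117 with median-of-ratios scaling). The hexamer-forming chaperones had 0.11 for Timm9 (0.579), 0.07 for Timm10 (0.699) and -0.14 for Timm13 (0.367), and none of these 4 passed as deposited.

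Of 6 genes of cristae junctions and of outer membrane barrel assembly, 3 rose, none fell and 3 did not pass (median log2 change 0.61). Chchd3, a MICOS subunit of the inner membrane, had 88.2, 86.3 and 53.5 FPKM in HDCKO and 18.5, 16.7 and 17.3 in WT (2.05, SE 0.22, adjusted p = 0.00133). Samm50, the SAM core that folds barrel proteins and contacts MICOS, had 52.9, 50.1 and 45.5 FPKM in HDCKO and 25.3, 23.4 and 27.3 in WT (0.95, SE 0.14, adjusted p = 0.00339). Immt, the largest MICOS subunit, had 59.0, 60.5 and 47.6 FPKM in HDCKO and 31.0, 30.2 and 30.3 in WT (0.85, SE 0.15, adjusted p = 0.00597). No HDCKO mouse reached the WT range in these 3 genes, and all 3 calls held in each leave-out. Chchd6, the paralogue of Chchd3 in the same complex, had 2.89, 6.20 and 6.96 FPKM in HDCKO and 9.93, 8.86 and 8.86 in WT. That difference of -0.81 (SE 0.31) missed the threshold (adjusted p = 0.0621), though the groups did not overlap. It passed without HDCKO replicate 1 (-0.46, adjusted p = 0.0490) and without HDCKO replicate 3 (-1.03, 0.0260). In the other leave-outs it did not pass (adjusted p from 0.0894 to 0.155). Nor did it pass under any of the 3 other scalings (-0.32, adjusted p = 0.243 with median-of-ratios scaling). Micos10, which bends the membrane at the junction, had 53.1, 47.9 and 39.0 FPKM in HDCKO and 36.3, 36.2 and 34.6 in WT (0.37, adjusted p = 0.0837), and it passed as higher under all 3 other scalings. Micos13, the subunit that bridges MICOS parts, had 54.4, 63.4 and 53.0 against 55.8, 54.1 and 51.3 FPKM (0.08, adjusted p = 0.629), with the groups overlapping. It passed as higher after quantile normalization (0.46, adjusted p = 0.0348) and with fibre and mitochondrially encoded genes out of the library sum (0.42, 0.0425).

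Among the other CHCHD genes, 5 of 6 rose (median log2 change 0.88). They encode small proteins, most of them held by paired disulfide bonds in the space between the membranes. Chchd10, a cristae-linked protein abundant in muscle and heart, rose most of all members. It had 235, 207 and 107 FPKM in HDCKO and 12.4, 8.81 and 3.83 in WT (4.43, SE 0.48, adjusted p = 0.00133), a ratio of mean FPKM of 21.9. The gene lies on chromosome 10, 75768964 to 75774713, plus strand (GRCm39). In both groups its order over the replicates was that of the fibre marker share given above; the link was not tested. Chchd2, its paralogue, had 290, 283 and 219 FPKM in HDCKO and 152, 147 and 135 in WT (0.86, SE 0.18, adjusted p = 0.0102). Chchd4, the oxidoreductase that traps imported proteins by disulfide exchange, had 24.5, 23.8 and 18.8 FPKM in HDCKO and 14.3, 12.7 and 11.8 in WT (0.76, SE 0.16, adjusted p = 0.0107). Every HDCKO mouse exceeded every WT mouse in these 3 genes. Chchd7 rose by 0.89 (adjusted p = 0.0110), and Chchd1, a part of the mitochondrial ribosome, by 0.91 (0.0147). Chchd5 had 0.11 (adjusted p = 0.638) and did not pass as deposited. It passed as higher with median-of-ratios scaling (0.59, adjusted p = 0.0193) and after quantile normalization (0.52, 0.0293). The count was 2 without HDCKO replicate 2, where Chchd1, Chchd2 and Chchd4 had adjusted p = 0.0615, 0.0519 and 0.0503, and without WT replicate 3 Chchd1 had 0.0553.

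Among the members, the fusion genes rose and the fission genes Dnm1l and Fis1 did not pass, with 3 of 5 higher and none lower. Mfn2, an outer membrane mitofusin that also tethers mitochondria to the endoplasmic reticulum, had 95.4, 79.9 and 49.5 FPKM in HDCKO and 14.9, 15.3 and 16.1 in WT (2.19, SE 0.25, adjusted p = 0.00167). The gene spans chromosome 4, 147955508 to 147989585, minus strand (GRCm39). Mfn1, the other mitofusin, had 45.1, 39.3 and 23.3 FPKM in HDCKO and 10.8, 9.75 and 10.7 in WT (1.69, SE 0.26, adjusted p = 0.00415). Opa1, the dynamin of inner membrane fusion, had 20.0, 18.0 and 16.1 FPKM in HDCKO and 9.81, 9.13 and 10.6 in WT (0.84, SE 0.14, adjusted p = 0.00569). All 3 genes stood apart between the groups and kept their call in each leave-out and scaling. For the division genes, Dnm1l, which encodes the dynamin DRP1, had 22.8, 19.8 and 23.9 against 24.2, 23.3 and 25.9 FPKM (-0.14, adjusted p = 0.390). Fis1, an outer membrane adaptor, had 65.0, 69.6 and 75.9 against 78.2, 83.7 and 77.2 FPKM (-0.19, adjusted p = 0.271), with no overlap. Both had small negative values as deposited and small positive ones under the other 3 scalings, 0.38 and 0.34 with median-of-ratios scaling. Whether fusion and fission genes differ from each other was not tested. The split is that of the members only. Of 17 other genes that control fusion and fission, 9 rose and 3 fell. Mff (0.45, adjusted p = 0.0293), Gdap1 (2.02, 0.00507), the DRP1 receptor gene Mief2 and the fission gene Mtfp1 were among those that rose. Gdap1 had 3.02, 1.41 and 0.960 FPKM in HDCKO but 0.0251, 0.0173 and 0.0390 in WT. It met the filter of 0.5 FPKM only through HDCKO, and the size of its change depends on the 0.5 added. Msto1, a regulator of fusion, was among those that fell.

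A ratio of 2 genes within a library cancels a common scaling factor, apart from the effect of the 0.5 FPKM added to each, so 6 pairs of paralogues and the MICOS pair Micos10 and Micos13 were compared that way. In all 7 the HDCKO and WT ratios did not overlap. Each exact two-sided permutation test gave p = 0.1 (0.1 after Benjamini-Hochberg adjustment over the 7), the smallest possible with 3 against 3, so no pair could pass. Single genes did not overlap in 21.2% (higher) and 51.4% (lower) of all genes tested, and the share over other gene pairs was not computed. In the Tomm40l, Timm8b and Chchd6 pairs the genes were each apart in opposite directions, so their ratios had to be apart. The largest shift was that of Chchd10 over Chchd2: the log2 ratio was -0.31, -0.45 and -1.03 in HDCKO and -3.56, -3.99 and -4.97 in WT. Chchd10 thus stood near Chchd2 in HDCKO and far below it in WT. The ratio of Chchd6 to Chchd3 was -4.71, -3.70 and -2.86 in HDCKO and -0.87, -0.88 and -0.93 in WT, a difference of -2.86. Timm8b over Timm8a1 was 4.45 ± 0.63 in HDCKO and 2.47 ± 0.11 in WT, and Tomm40l over Tomm40 was -1.04 ± 0.48 and -2.42 ± 0.13. The pair Timm17b over Timm17a had -2.68 ± 0.32 and -1.85 ± 0.09. Mfn2 over Mfn1 was 1.05 ± 0.03 and 0.55 ± 0.09, and Micos10 over Micos13 was -0.29 ± 0.22 and -0.58 ± 0.03. In HDCKO, then, the less abundant WT paralogue gained ground in the Chchd10 and Tomm40l pairs and lost it in the Chchd6, Timm8a1, Timm17b and Mfn1 pairs.

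**Figure D3:**
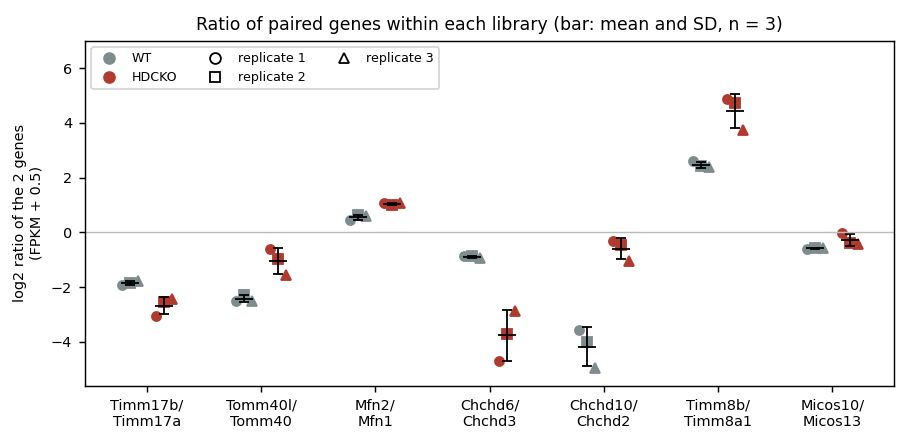
Log2 ratio of 2 genes within each library (FPKM + 0.5) for 7 pairs; grey is WT, red is HDCKO, shapes mark the replicate, and the black bar is the mean with SD (n = 3). In each pair the red and grey points do not overlap, with the widest gap, 3.58 between the means, for Chchd10 over Chchd2.

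The role groups were also set beside the organelle they serve, through 70 nuclear subunits of oxidative phosphorylation (OXPHOS), all of which rose (median log2 change 1.63). The median log2 level of these 70 was 7.97, 7.89 and 7.28 in HDCKO and 6.37, 6.19 and 6.31 in WT. The median log2 level of the 9 TOM genes was 4.61, 4.67 and 5.07 in HDCKO and 5.25, 5.25 and 5.23 in WT, so as deposited the 2 medians moved apart. For the 6 TIM23 genes it was 4.85, 4.92 and 4.88 in HDCKO and 4.43, 4.39 and 4.60 in WT. Taking each gene minus the OXPHOS median of its library, 36 of 40 members were lower in all HDCKO libraries than in all WT libraries and 4 were higher. Over all genes tested the same held for 84.6% and 6.07%, so the members' counts are near the background. The 4 above it were Chchd10 (difference 3.01), Mfn2 (0.77), Chchd3 (0.63) and Mfn1 (0.26). The most negative differences were those of Timm10b (-2.40), Timm8a1 (-2.33), Chchd6 (-2.23) and Tomm40 (-2.22); each exact two-sided permutation p was 0.1, the smallest possible.

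**Figure D4:**
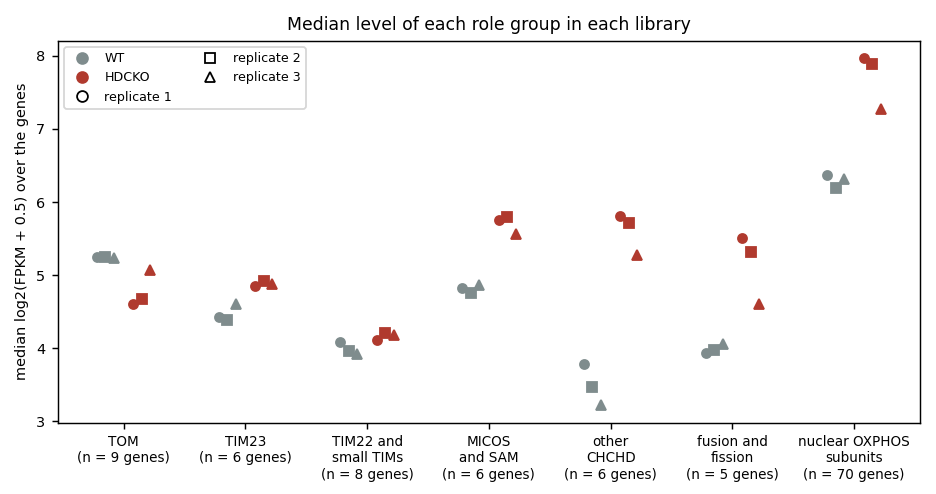
Median log2(FPKM + 0.5) over the genes of each role group, and over 70 nuclear OXPHOS subunits, in each WT (grey) and HDCKO (red) library; shapes mark the replicate. As deposited, the TOM medians are lower in HDCKO (4.61 to 5.07 against 5.23 to 5.25), while the OXPHOS medians are higher (7.28 to 7.97 against 6.19 to 6.37).

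The other genes of the pathway, a list of 44 of which 43 were tested, gave 21 higher, 7 lower and 15 that did not pass (median log2 change 0.38), or 48.8% and 16.3% against 17.8% and 42.6% of all genes tested. Of 9 import motor and matrix chaperone genes 4 rose and 1 fell, of 6 tested peptidase and insertase genes 5 rose, and of 17 genes that control fusion and fission 9 rose and 3 fell. Of 11 partners of SAM, MICOS and the disulfide relay 3 rose and 3 fell. Mief2, a receptor for DRP1, had 24.0, 19.6 and 16.4 FPKM in HDCKO and 3.33, 4.31 and 4.06 in WT (2.21, adjusted p = 6.0e-04). Mtfp1, a fission protein of the inner membrane, had 30.8, 21.7 and 11.7 against 1.28, 1.39 and 1.10 FPKM (3.54, adjusted p = 9.2e-04). Apoo, a MICOS subunit, had 73.9, 58.8 and 35.4 against 7.65, 7.26 and 7.02 FPKM (2.79, adjusted p = 9.5e-04). All HDCKO mice stood far above WT in these 3, with replicate 3 nearest. Immp1l, an inner membrane peptidase, rose by 1.62 (adjusted p = 0.00139).

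Those that fell included Mtfr2, with 0.0222, 0.143 and 0.803 against 2.11, 1.96 and 2.54 FPKM (-1.83, adjusted p = 0.00837), and Msto1, a regulator of fusion, with 4.36, 4.66 and 8.56 against 14.1, 12.7 and 16.8 FPKM (-1.29, adjusted p = 0.0107). The outer membrane insertase gene Mtch1 fell by 0.97 (adjusted p = 0.0141), while its paralogue Mtch2 rose by 0.53 (0.0193). Mtch1 missed the threshold with median-of-ratios scaling (-0.45, adjusted p = 0.0507) and passed under the other scalings tried. Mtx2, a SAM partner, fell by 0.52 (0.0162). With median-of-ratios scaling the log2 change of Mtx2 was 0.00. When 1 library was left out, the count that rose was 9 for HDCKO replicate 2, 12 for WT replicate 1 and 11 for WT replicate 2 or WT replicate 3. The count that fell was 4 for HDCKO replicate 1, 11 for HDCKO replicate 3, and 2 for HDCKO replicate 2, WT replicate 1 or WT replicate 3. Counts over all genes moved as well: of 2362 higher and 5658 lower, 1785 and 2502 were called with HDCKO replicate 2 left out, and 2475 and 7266 with HDCKO replicate 3 left out. They were 1822 and 3019 for WT replicate 1, and 1850 and 2813 for WT replicate 3.

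The 3 other scalings moved all tested members upward. The step was similar between genes except after quantile normalization, where for example Timm8b went from 1.07 to 1.32 and Timm17b from -0.20 to 0.26. Over all genes tested the median log2 change stood at -0.50 as deposited, -0.19 with fibre and mitochondrially encoded genes taken out of the library sum, -0.12 after quantile normalization and -0.03 with median-of-ratios scaling. The 18 members that rose passed under all 4. Of the 5 that fell, Timm10b and Timm8a1 passed under all 4, and Tomm22, Tomm40 and Tomm6 kept a negative value but lost the call under at least 2 of the 3 alternatives. With median-of-ratios scaling 22 of 40 members rose and 2 fell, where 26.6% and 26.1% of all genes did. After quantile normalization it was 23 and 3 (23.6% and 30.3% of all genes), and with the reduced library sum 22 and 2 (24.1% and 26.8%). Over all genes, 29.5% of the calls were higher as deposited and 50.5% with median-of-ratios scaling.

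**Figure D5:**
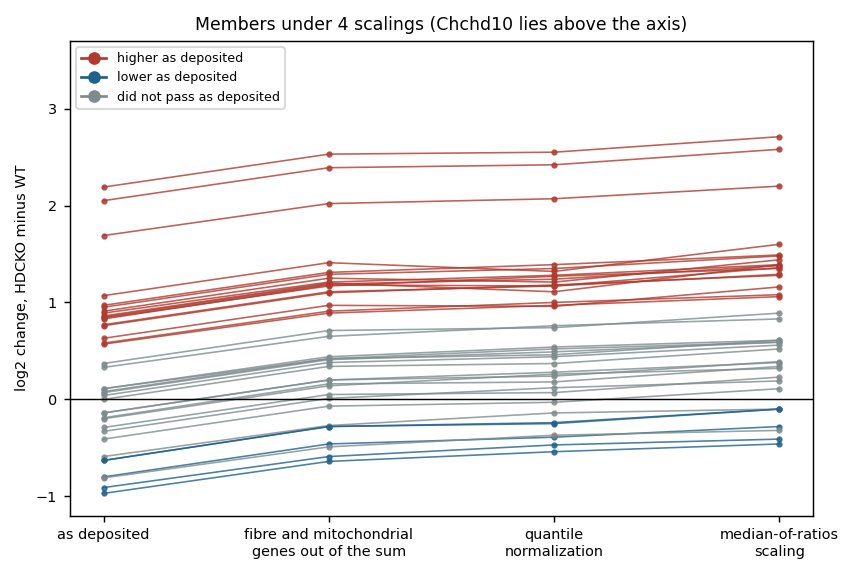
Log2 change (HDCKO minus WT) of 39 members under 4 scalings of the same FPKM values, 1 line per gene; Chchd10, at 4.43 to 4.94, lies above the axis. Red lines were called higher as deposited and stay above 0, and blue lines were called lower and stay below 0, and most lines end higher on the right by about the shift of the median of all genes.

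Gene boundaries limit some of these values. Exons of 20 of the 42 genes share bases with another gene of the table in the GENCODE annotation of GRCm39, on the opposite strand in all but 1 case, and no source used here says whether counting used strand. Of the exon length of Timm8b, 63.2% is shared with Nkapd1, which had means of 4.98 FPKM in HDCKO and 7.59 in WT. Tomm40l shares 61% with Nr1i3, at 0.0175 and 0.024 FPKM. For Mfn1 40.4% is shared with Gnb4, at 3.32 and 6.23 FPKM, and for Chchd1 47.5% with 6230400D17Rik, at 0.484 and 0.209 FPKM. In each of these 4 the partner's level was below that of the member in both groups. This did not hold for Chchd4, which shares 25.9% with Tmem43, at 24.5 FPKM in HDCKO and 55.6 in WT, above Chchd4 in both. Timm22 shares 32.1% with Abr, at 4.43 and 15.1 FPKM, above Timm22 in WT. For Dnm1l 49.3% is shared with Yars2, at 10.1 and 8.95 FPKM, below Dnm1l in both groups. Reads shared with processed pseudogenes, which several members have, could not be traced in a table of values per gene.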

How the data were processed

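RNA came from hind limb muscle of 3 HDCKO and 3 WT mice, 1 library each, as labelled. The deposited values are FPKM: the authors converted a count matrix to FPKM, per the labels. The submitters' processing notes name FastQC 0.11.9, HISAT2 2.1.0 with HTSeq 0.11.2, STAR 2.7.11b, GRCm39 and DESeq2 1.22.2, which the authors ran after the conversion; as 2 aligners are named, which one led to the table is unclear. HDCKO and WT were compared on log2(FPKM + 0.5) by limma with a trended prior (R 4.3.3 with limma 3.58.1; statmod 1.5.0), over the 13288 genes whose mean reached 0.5 FPKM, with no covariate, two-sided, with Benjamini-Hochberg adjustment over all of them and a threshold of 0.05. Ratios were tested by exact permutation over the 6 libraries, which cannot go below p = 0.1. Depth was estimated from the lowest FPKM steps and exon lengths and entered no test. The limma fit was tried on simulated data that held fewer changed genes than were called here and no shift in scaling. Members and lists were chosen with earlier results of these data known. Named genes were all members, with values in every library for up to 3 per role with the smallest p, all in a pair and all that fell, and up to 4 other pathway genes per direction. Mff, Gdap1, Mtch2 and Yme1l1 are named outside that rule. Of the listed names, Tomm20l is not analysed here. By symbol, 22464 of 25572 genes matched GENCODE. Alternatives were pseudocounts 0.1 and 1, no filter or a mean of at least 1 FPKM, 3 scalings, sample weights (whose fit stopped before full convergence), a replicate block and each library left out.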

Additional observations from a re-analysis of the deposited data

How the results depend on the processing

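Pseudocounts 0.1 and 1, and other filters, changed no count of members by over 1.5 times. Members that fell numbered 5, but 2 with median-of-ratios scaling, 3 after quantile normalization, 2 with a library sum lacking fibre and mitochondrially encoded genes, 13 with sample weights, and 2 to 9 when each library was left out. Other pathway genes that fell numbered 7, but 2, 3, 3 and 13 under the same 4 settings, and 2 to 11 in the leave-outs. Members that rose numbered 18, and 12 to 19 in the leave-outs. Other pathway genes that rose numbered 21, but 29 (67.4%) under each of the 3 other scalings, and 9 to 23 in the leave-outs. Sample weights gave 21 members and 28 other pathway genes that rose. Over all 13288 genes tested, the same weights gave 3430 higher and 8241 lower. Mtx2 and Yme1l1, which fell as deposited, had log2 changes of 0.00 and 0.09 with median-of-ratios scaling; the cause of these shifts was not tested. Mouse numbers were not shown to pair the mice: deviations of same-numbered libraries correlated at 0.12, 0.07 and 0.14, and 2 of 3 HDCKO libraries correlated best with their own number. With a replicate block, 17 members rose and 5 fell, and among other pathway genes 13 rose and 4 fell. Over all 13288 genes tested, that block gave 2081 higher and 5089 lower. With the other role groups in place of OXPHOS subunits as the reference, 16 members stood above WT without overlap and 19 below, against 4 and 36. That reference is another set of genes, and the share over all genes was not computed for it. The direction of the 7 ratios was the same under both pseudocounts and each leave-out. Values well below 0.5 FPKM, such as those of Timm8a2, Tomm6os, Gdap1 in WT, and Mtfr2 in HDCKO replicates 1 and 2, rest on few fragments. Gdap1 and Mtfr2 each met the filter only through the group where they were high.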
